A study of Mus musculus with 14 samples.

Results

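The NF-kB subunits and the feedback inhibitors that NF-kB itself induces are 10 genes, and all 10 were measured among the 24908 genes and transcripts tested in splenocytes of Sting gt/gt and wild-type (WT) mice. The subunits are Nfkb1, Nfkb2, Rel, Rela and Relb, and the feedback genes are Nfkbia, Nfkbie, Nfkbiz, Tnfaip3 and Bcl3. A probe was taken for a gene when the accession printed for it matched that gene's RefSeq accessions. This gave 14 of the 56605 probes of the array, with 2 probes each for Nfkb2, Rela, Relb and Nfkbiz. All 14 probes were well above background on all 14 arrays, and none was saturated on any array.

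The study asked whether STING, the adaptor that passes on the sensing of cytosolic DNA, alters the response to collagen-induced arthritis. It compared splenocyte RNA of 7 WT and 7 Sting gt/gt mice, 1 Agilent array per mouse. The mice were 10 to 14 weeks old at immunization. Every mouse of both groups had been immunized by intradermal injection of chicken type II collagen in complete Freund's adjuvant (CFA + CII), and spleens were taken 2 weeks after the first injection. Sting gt/gt mice are homozygous for golden ticket, an allele induced by the mutagen ENU on the C57BL/6 background. They came from a different source than the WT mice, which were purchased. Mice without immunization were not analysed here, so the values below compare genotypes within immunized animals. The splenocytes were whole suspensions after red cell lysis, and in such bulk samples fewer cells of a type and less RNA per cell cannot be told apart.

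NF-kB factors are dimers of Rel-homology proteins that sit in the cytoplasm bound to inhibitors of the IkB type. Receptors such as CD40, the TNF receptors, Toll-like receptors and the B cell receptor lead to phosphorylation of IkB by the IKK kinases, IkB is degraded, and the freed dimers enter the nucleus. Among the genes the dimers switch on are those of their own inhibitors and of several subunits, so the transcripts of these 10 genes are commonly read alongside pathway activity in immune cells. STING itself can activate IKK beside the interferon pathway. In the spleen, RelA and c-Rel act in activated lymphocytes and myeloid cells, and the p52 and RelB pair act in B cell maturation and in the stromal layout of the follicles.

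The letters that NF-kB dimers are known to bind can be seen in the reference sequence upstream of several of the 10 genes. RefSeq promoters (GRCm38.p6) were at hand for 7 of them, Rela and Bcl3 included. They were searched on both strands over the 250 bases before the start site for the kB consensus, a motif of 10 letters that NF-kB dimers bind, and overlapping matches were allowed. A match was found for 5 of these 7 genes, in 7 of their 10 promoter entries. The motif was present in 2382 of 32851 mouse promoters (7.25%). The stretches below are shown because they hold the consensus matches, in capitals. A match is a run of letters and was not measured as a bound site in these data.
Nfkbia (IkB-alpha), chr12:55492651-55492692, minus strand: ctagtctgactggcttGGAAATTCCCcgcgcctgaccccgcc
Nfkbie (IkB-epsilon), chr17:45555578-45555619, plus strand: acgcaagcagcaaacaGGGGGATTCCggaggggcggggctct
Rel (c-Rel), chr11:23771035-23771077, minus strand: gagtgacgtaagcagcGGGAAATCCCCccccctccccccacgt
Nfkb2 (p100/p52), chr19:46304682-46304736, plus strand: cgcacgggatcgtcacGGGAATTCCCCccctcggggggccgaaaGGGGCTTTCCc
Tnfaip3 (A20), chr10:19015411-19015551, minus strand: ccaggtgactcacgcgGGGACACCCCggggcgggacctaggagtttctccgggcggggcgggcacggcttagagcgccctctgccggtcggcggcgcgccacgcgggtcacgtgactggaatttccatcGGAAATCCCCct
In Nfkbia the match began 29 bases before the start site. In Tnfaip3 the first began 125 bases and the last 12 bases before it. Another 2 promoter entries of Nfkb2, further downstream, held 1 match each (chr19:46305445-46305484, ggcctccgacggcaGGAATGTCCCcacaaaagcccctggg, and chr19:46305689-46305730, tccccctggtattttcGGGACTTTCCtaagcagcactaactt, both on the plus strand).

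Values are log2 of the processed probe signal, with 0 at the 75th percentile of the array. A difference is the mean of Sting gt/gt minus the mean of WT on that scale, with its standard error (SE), and a gene was called at an unadjusted p under 0.05 by limma, the threshold the study used. Replicates 1 to 3 of both genotypes were scanned on 1 day and replicates 4 to 7 on another, and on the second scan day all 4 Sting gt/gt arrays lay on 1 slide that held no WT array. Slide and genotype therefore cannot be told apart in replicates 4 to 7. The transcript of Sting1, the targeted gene, lay between 2.85 and 3.33 over the WT mice (median 3.12) and between 2.92 and 3.29 over the Sting gt/gt mice (median 3.16). Golden ticket is a point mutation that removes the protein, so this level does not check the genotype labels.

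In the whole comparison of 7 against 7 mice, no difference between genotypes was shown for any of the 10 genes. The count called was 0 of 10, beside a background of 3.54% of all genes tested (882 of 24908), of which 1 passed after Benjamini-Hochberg adjustment. A block for the replicate number raised the count over all genes to 1408 and left it at 0 for the 10. In Sting gt/gt, 5 of the 10 had the higher mean and 5 the lower, with a median difference of -0.01 beside 0.02 over all genes. The lowest unadjusted p among them was 0.347 by limma and 0.277 by the two-sided exact permutation test over all splits of the 14 arrays. The values of WT and Sting gt/gt overlapped for every one of them, whereas groups were fully separate for 0.0482% of all genes.

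Among the subunits, Nfkb1, which encodes p105 and its processed form p50, ranged in WT from -0.24 to 0.41 with a median of -0.05. In Sting gt/gt it ranged from -0.67 to 0.39 with a median of 0.26. The difference was 0.14 (SE 0.16, 95% interval -0.20 to 0.47, exact permutation p = 0.424). The lowest Sting gt/gt value, -0.67, came from replicate 1 and lay well below the other 6, the lowest of which was 0.10. Without that array the difference was 0.27 and Nfkb1 was called. It was also called, at 0.28, when noisy arrays were given less weight, a setting in which 17.7% of all genes were called.

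Rela encodes p65, the main transactivating subunit of the classical pathway. Its signal lay between 4.73 and 5.06 over the WT mice (median 4.91) and between 4.67 and 5.19 over the Sting gt/gt mice (median 5.05). The difference was 0.06 (SE 0.10, interval -0.16 to 0.28, exact permutation p = 0.52). The Sting gt/gt values were spread on either side of the WT range, with the lowest and the highest values of all 14 arrays both in this genotype.

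Rel, encoding c-Rel of activated lymphocytes, had a wide spread. It lay between -2.27 and -1.12 over the WT mice (median -1.95) and between -2.31 and -1.31 over the Sting gt/gt mice (median -1.74), a difference of 0.11 (SE 0.19, interval -0.29 to 0.51). Its highest value was from WT replicate 2, and most of the remaining values of the 2 genotypes lay interleaved.

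Nfkb2 and Relb belong to the alternative pathway. Nfkb2, encoding p100 and p52, lay between 2.46 and 2.89 over the WT mice (median 2.62) and between 2.38 and 2.87 over the Sting gt/gt mice (median 2.44), a difference of -0.10 (SE 0.10, interval -0.32 to 0.12). Relb, its usual partner, lay between 1.93 and 2.46 over the WT mice (median 2.33) and between 1.87 and 2.55 over the Sting gt/gt mice (median 2.12), a difference of -0.08 (SE 0.13, interval -0.36 to 0.20). For both, the lowest and the highest samples of each genotype lay close to those of the other.

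Of the feedback inhibitors, Nfkbia is the classical rapid one, encoding IkB-alpha that pulls RelA dimers back out of the nucleus. It lay between 4.57 and 5.22 over the WT mice (median 4.77) and between 4.24 and 5.10 over the Sting gt/gt mice (median 4.93). The difference was 0.04 (SE 0.14, interval -0.27 to 0.35, exact permutation p = 0.788). As for Nfkb1, the lowest Sting gt/gt value was that of replicate 1 and lay apart from the other 6.

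Nfkbie encodes IkB-epsilon, an inhibitor with slower kinetics. It lay between 1.49 and 2.58 over the WT mice (median 2.03) and between 1.73 and 2.29 over the Sting gt/gt mice (median 1.97), a difference of -0.09 (SE 0.16, interval -0.42 to 0.24). The Sting gt/gt range lay wholly inside the WT range.

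Tnfaip3 encodes A20, a ubiquitin-editing enzyme that stops signalling at the receptor complexes. It lay between 1.29 and 2.01 over the WT mice (median 1.72) and between 1.27 and 1.97 over the Sting gt/gt mice (median 1.53), a difference of -0.12 (SE 0.15, interval -0.43 to 0.20). Bcl3, a nuclear IkB protein that works with p50 and p52 dimers, lay between 2.99 and 3.60 over the WT mice (median 3.28) and between 2.82 and 3.43 over the Sting gt/gt mice (median 3.16), a difference of -0.06 (SE 0.12, interval -0.31 to 0.20). The ranges of the 2 genotypes nearly coincided for Tnfaip3, and for Bcl3 the Sting gt/gt range reached lower and ended lower, with a wide overlap.

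Nfkbiz encodes IkB-zeta, an inducible nuclear cofactor. It lay between -1.35 and 0.32 over the WT mice (median -0.10) and between -1.14 and 0.05 over the Sting gt/gt mice (median -0.35), a difference of 0.04 (SE 0.27, interval -0.55 to 0.62). On this scale it had the widest range of the 10 over the 14 arrays, spanning 3.19-fold from the lowest to the highest array. Nfkb2 and Rela spanned 1.43-fold. Within genotype and replicate set the SD of Nfkbiz was 0.23, below those of Rel (0.37), Nfkb1 (0.26) and Nfkbia (0.25). In the authors' log2 table Rel ran from 6.64 to 7.74, wider than Nfkbiz, which ran from 8.10 to 8.92. For 8 of the 10 genes the 95% interval of the difference lay within 0.5 either way on the log2 scale, the exceptions being Rel and Nfkbiz. These intervals treat arrays as independent, but the common correlation of arrays on the same slide was estimated at 0.434. With slide as a fixed block, Nfkb1 (-0.34), Nfkbia (-0.34) and Rela (-0.18) fell below their intervals. Of the other genes whose sign this block turned, Rel (-0.29) lay at the lower end of its interval and Nfkbie (0.10) within. That block rests on the few arrays of the first scan day whose slides held both genotypes. The intervals therefore limit a difference only where slide is ignored, and do not show that the genotypes were alike.

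**Figure D1:**
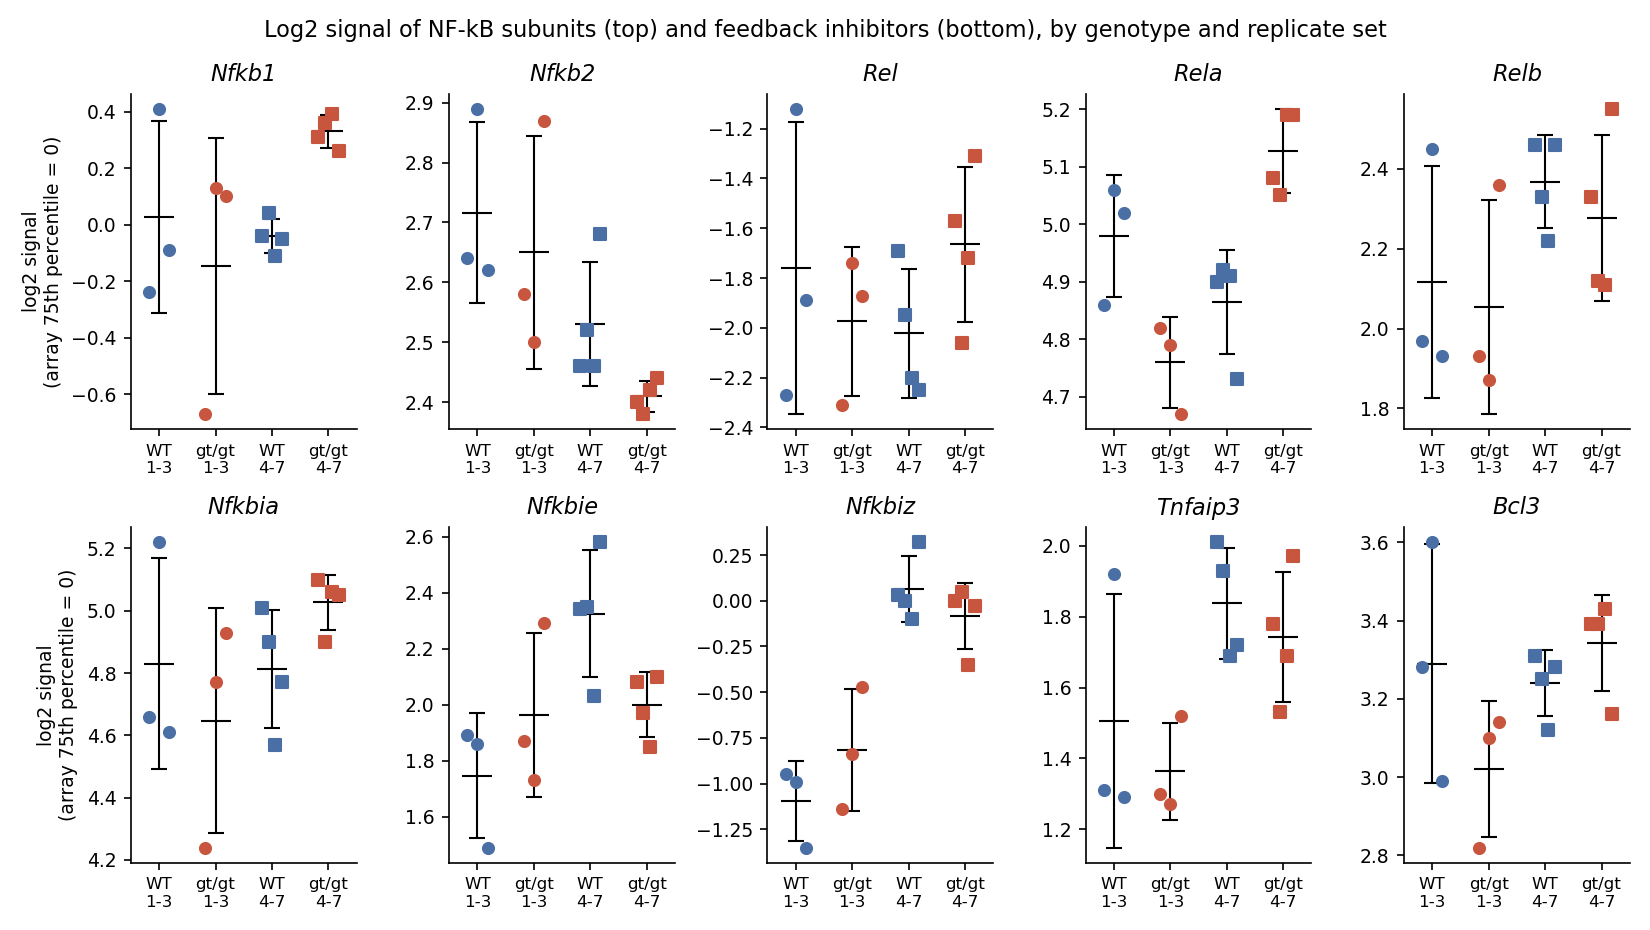
Log2 signal of each array (y axis, 0 is the array's 75th percentile) for the 10 genes, by genotype and replicate set (x axis); points are mice, the horizontal mark and bars are the mean and SD of 3 or 4 mice. Rela was lower in Sting gt/gt in replicates 1 to 3 and higher in replicates 4 to 7. On this scale Nfkbiz separated by replicate set in both genotypes, which it did not in the authors' log2 table.

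Taken apart, the 2 replicate sets gave different signs for most of the genes. In replicates 1 to 3, 8 of the 10 genes and all 5 subunits were below 0 in the difference, with a median of -0.16 beside 0.00 over all genes. These signs rested in large part on WT replicate 2. Without it the difference was above 0 for Nfkb1 (0.019), Nfkb2 (0.018), Rel (0.11), Relb (0.10), Nfkbia (0.0066) and Tnfaip3 (0.062). None was called (0 of 10, background 3.77%). Rela alone had groups that did not overlap, which 9.02% of all genes showed in these 6 arrays. With 3 against 3 mice the exact test cannot go below p = 0.1. In replicates 4 to 7, 3 of the 10 genes were called, beside a background of 23.7%, namely Nfkb1, Rela and Nfkbie. Groups did not overlap for 3 of the 10 (Nfkb1, Nfkb2 and Rela), against 15.1% of all genes. On 10 genes, these counts stand near the shares of all genes.

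Nfkb1 in replicates 4 to 7 read -0.04, 0.04, -0.11 and -0.05 in WT and 0.31, 0.36, 0.39 and 0.26 in Sting gt/gt. Every Sting gt/gt value lay above every WT value, and the spread within each genotype was small. The difference was 0.37 (SE 0.09, interval 0.17 to 0.57, p = 0.00242 and adjusted p = 0.0658 by limma, exact permutation p = 0.0286). That exact value is the smallest that 4 against 4 mice allow. Leaving out each mouse in turn gave 0.35 to 0.40, each time called. In replicates 1 to 3 the values were -0.24, 0.41 and -0.09 in WT and -0.67, 0.13 and 0.10 in Sting gt/gt, overlapping widely, with a difference of -0.17 (SE 0.27). That difference ranged from -0.31 to 0.09 as each mouse was left out. The differences of the 2 sets were themselves not shown to differ (0.54, SE 0.27, p = 0.0621 by limma, exact permutation p = 0.107). That value passed the threshold with median centring (0.63), in the authors' log2 table (0.53) and without WT replicate 1 (0.68), Sting gt/gt replicate 2 (0.68) or Sting gt/gt replicate 3 (0.66). Leaving out the low array, Sting gt/gt replicate 1, brought it to 0.28, not called.

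The Rela difference had opposite signs in the 2 sets, and passed the threshold in replicates 4 to 7 only. In replicates 1 to 3 it read 4.86, 5.06 and 5.02 in WT and 4.82, 4.79 and 4.67 in Sting gt/gt, with every Sting gt/gt value below every WT value and a difference of -0.22 (SE 0.13, interval -0.53 to 0.10, p = 0.149 by limma, exact permutation p = 0.1). In replicates 4 to 7 it read 4.90, 4.92, 4.91 and 4.73 in WT and 5.08, 5.05, 5.19 and 5.19 in Sting gt/gt, again with no overlap but with Sting gt/gt above WT. That difference was 0.26 (SE 0.09, p = 0.0213 and adjusted p = 0.144 by limma, exact permutation p = 0.0286). The change between the sets was 0.48 (SE 0.14, interval 0.18 to 0.78, p = 0.00396 and adjusted p = 0.101 by limma), and its exact permutation p over 1400 splits within scan days was 0.00143. Over all genes, 18.4% had a change between the sets past the same unadjusted threshold, and 2 of the 10 genes did.

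The call for Rela in replicates 4 to 7 depended on the processing. The difference was 0.20 with no scaling between arrays, 0.18 with quantile normalization and 0.17 in the authors' log2 table, none of them called. Leaving out WT replicate 7 gave 0.22, and leaving out Sting gt/gt replicate 6 gave 0.24, neither of them called. The second probe for Rela, whose log2 signals lay between -3.23 and -2.64, did not follow the first. Its difference was 0.25 in replicates 1 to 3 and -0.04 in replicates 4 to 7, and over the 14 arrays it correlated with the first at r = -0.62 once set means were removed. The call of the change between sets was lost with quantile normalization (0.33) and with the mean of the 2 probes (0.10). In a fit over all probes of the authors' log2 table, the first probe changed by 0.33 (interval -0.0029 to 0.66, p = 0.0518 by limma). The second probe changed by -0.29 (SE 0.19) between the sets in the scanner values.

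Nfkbie was the other gene whose genotype difference changed between sets. In replicates 1 to 3 it read 1.89, 1.86 and 1.49 in WT and 1.87, 1.73 and 2.29 in Sting gt/gt, which overlapped, with a difference of 0.22 (SE 0.20). In replicates 4 to 7 it read 2.34, 2.35, 2.03 and 2.58 in WT and 2.08, 1.97, 1.85 and 2.10 in Sting gt/gt. There 3 of the 4 WT values exceeded all Sting gt/gt values, and the difference was -0.33 (SE 0.13, p = 0.0344 and adjusted p = 0.178 by limma, exact permutation p = 0.0857). The change between the sets was -0.55 (SE 0.23, p = 0.0332 and adjusted p = 0.229 by limma, exact permutation p = 0.0343). The call in replicates 4 to 7 was lost on leaving out WT replicate 4 (-0.32), 5 (-0.32) or 7 (-0.24), or Sting gt/gt replicate 5 (-0.32) or 6 (-0.27). The call of the change was lost without WT replicate 3 (-0.42), 5 (-0.54) or 7 (-0.46) or Sting gt/gt replicate 3 (-0.38) or 6 (-0.50). With no scaling between arrays both calls were lost (-0.39 in replicates 4 to 7 and -0.55 for the change). In the authors' log2 table Nfkbie in replicates 4 to 7 differed by -0.38 and was called.

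The other 7 genes gave no call in either set. In replicates 4 to 7 Nfkb2 read 2.46, 2.52, 2.46 and 2.68 in WT and 2.40, 2.38, 2.42 and 2.44 in Sting gt/gt. The groups did not overlap, by a narrow margin, and the difference was -0.12 (SE 0.09, p = 0.221 by limma, exact permutation p = 0.0286). Rel differed by 0.36 (SE 0.18) in this set and passed the threshold with median centring (0.37), quantile normalization (0.38), in the authors' log2 table (0.40) and without WT replicate 4 (0.47) or Sting gt/gt replicate 5 (0.49). Over all arrays left out in turn it lay between 0.24 and 0.49. Nfkbia differed by -0.19 (SE 0.24) in replicates 1 to 3 and 0.21 (SE 0.12) in replicates 4 to 7. Bcl3 differed by -0.27 (SE 0.19) and 0.10 (SE 0.10). Relb differed by -0.06 (SE 0.21) and -0.09 (SE 0.13), Tnfaip3 by -0.14 (SE 0.20) and -0.10 (SE 0.13), and Nfkbiz by 0.28 (SE 0.21) and -0.14 (SE 0.13). The sign of the difference turned between the sets for 7 of the 10 genes. Which genes turned depended on WT replicate 2. Without it Nfkb1, Rel and Nfkbia no longer turned, while Nfkb2, Relb and Tnfaip3 did.

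**Figure D2:**
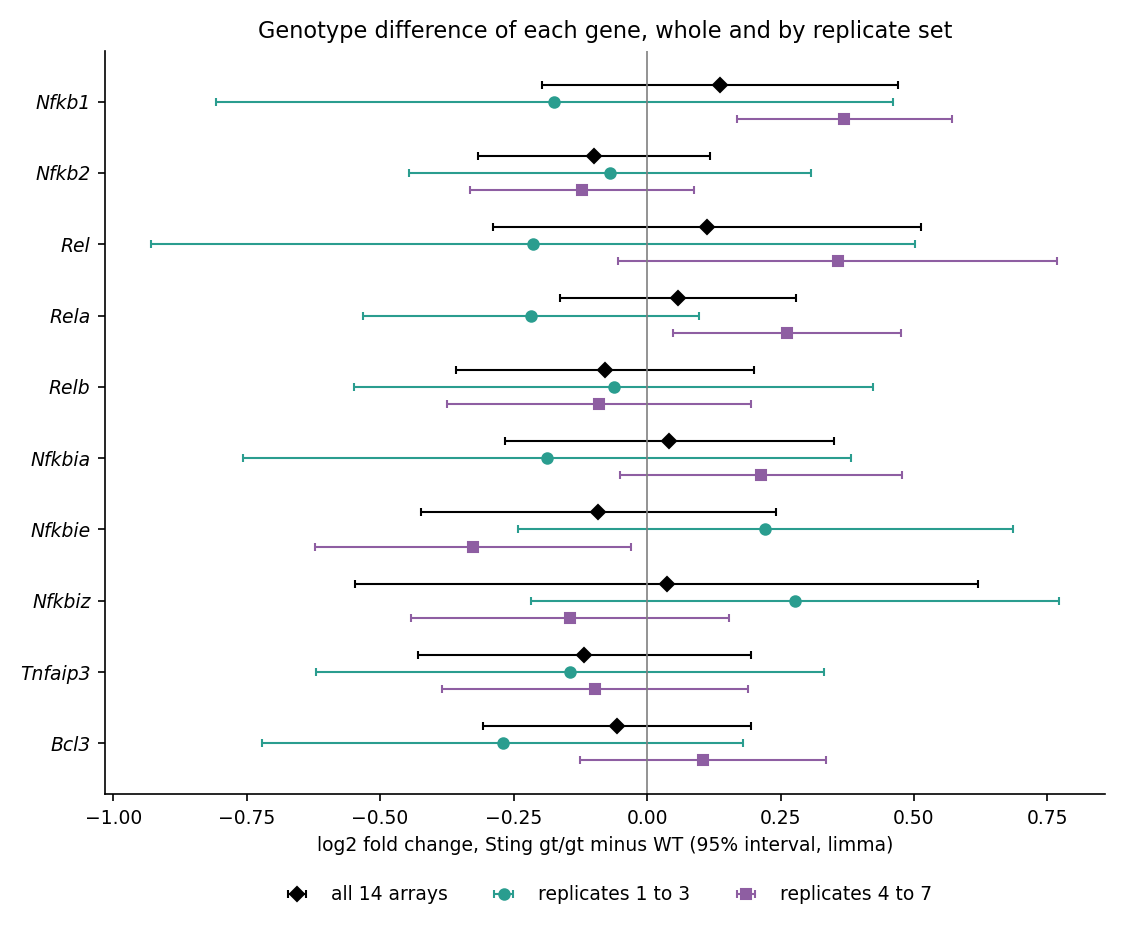
Difference in log2 signal, Sting gt/gt minus WT, with its 95% interval by limma (x axis), for each gene (y axis) over all 14 arrays, replicates 1 to 3 and replicates 4 to 7. All 10 intervals of the whole comparison include 0, and those of Nfkb1, Rela and Nfkbie in replicates 4 to 7 do not.

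The scan day separated some of these genes more than the genotype did. With genotype in the model, Nfkbiz was 0.95 higher on the second scan day (SE 0.13, adjusted p = 6.61e-05 by limma). All 6 arrays of the first day lay between -1.35 and -0.47 and all 8 of the second day between -0.35 and 0.32. Tnfaip3 was 0.36 higher (SE 0.11, adjusted p = 0.0223 by limma) and Nfkb2 differed by -0.21 (SE 0.08, adjusted p = 0.0494 by limma). These 3 of 10 passed an adjusted threshold that 38.8% of all genes passed, so the share among the 10 was no higher than in the array as a whole. The other 7 ranged from 0.02 for Rel to 0.31 for Nfkbie. In the authors' log2 table the days did not part for Nfkbiz. Its values there lay between 8.10 and 8.92 in replicates 1 to 3 and between 8.16 and 8.83 in replicates 4 to 7. Tnfaip3 there averaged 10.47 in WT and 10.35 in Sting gt/gt in replicates 1 to 3, and 10.63 and 10.48 in replicates 4 to 7. Nfkb2 averaged 11.38 and 11.37, then 11.50 and 11.32.

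The second probes of the other genes mostly moved with the first. With set means removed, the correlation over 14 arrays was 0.75 for Nfkb2, 0.79 for Relb and 0.70 for Nfkbiz. No probe of the 14 was called in the whole comparison from the scanner files (lowest p = 0.352 by limma) or in the authors' log2 table (lowest p = 0.253 by limma). The dimmer Nfkbiz probe differed by -0.43 (SE 0.20) in replicates 4 to 7, where the brighter differed by -0.14.

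Across mice, several of the 10 genes varied together. After the mean of each replicate set was removed, Nfkb1 and Nfkbia had a Pearson r of 0.88 (with Spearman's rho in brackets, 0.76), Rel and Nfkbia 0.85 (0.87), Relb and Tnfaip3 0.86 (0.89), Nfkbie and Nfkbiz 0.83 (0.56), Nfkbia and Bcl3 0.81 (0.61), and Nfkb2 and Relb 0.80 (0.78). Rela ran the opposite way to Nfkbie (-0.77) and Nfkbiz (-0.70). Genotype differences within a set enter these values. With genotype means also removed, Rela stood at -0.60 with Nfkbie and -0.73 with Nfkbiz. Nfkb1 with Rela then went from 0.51 to 0.08, and the median over all pairs was 0.50. Over the 45 pairs the median r was 0.40, with 20 pairs over 0.5 and 7 below 0. The median r of each gene with the other members ran from 0.07 (Nfkbie) to 0.58 (Nfkbia). With all genes it ran from -0.08 (Nfkbie) to 0.06 (Rela), and the top decile began at 0.48 (Bcl3) to 0.62 (Nfkb1). The share of pairs over 0.5 among all genes was not counted. Each array's values share its library, its scaling and its mix of cells, so these are descriptions over 14 arrays and carry no test. They rested in part on WT replicate 2, which was high in most of these genes, and Sting gt/gt replicate 1, which was low in several. Without this pair of arrays the median r over the 45 pairs was 0.19 and 18 pairs were below 0. These pairs then stood at 0.69 (Nfkb1 and Nfkbia), 0.75 (Rel and Nfkbia), 0.80 (Relb and Tnfaip3), 0.87 (Nfkbie and Nfkbiz), 0.47 (Nfkbia and Bcl3) and 0.71 (Nfkb2 and Relb), and Rela with Nfkbie at -0.84. Bcl3 with Nfkb1 went from 0.74 to 0.34, and with Rel from 0.53 to -0.09.

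**Figure D3:**
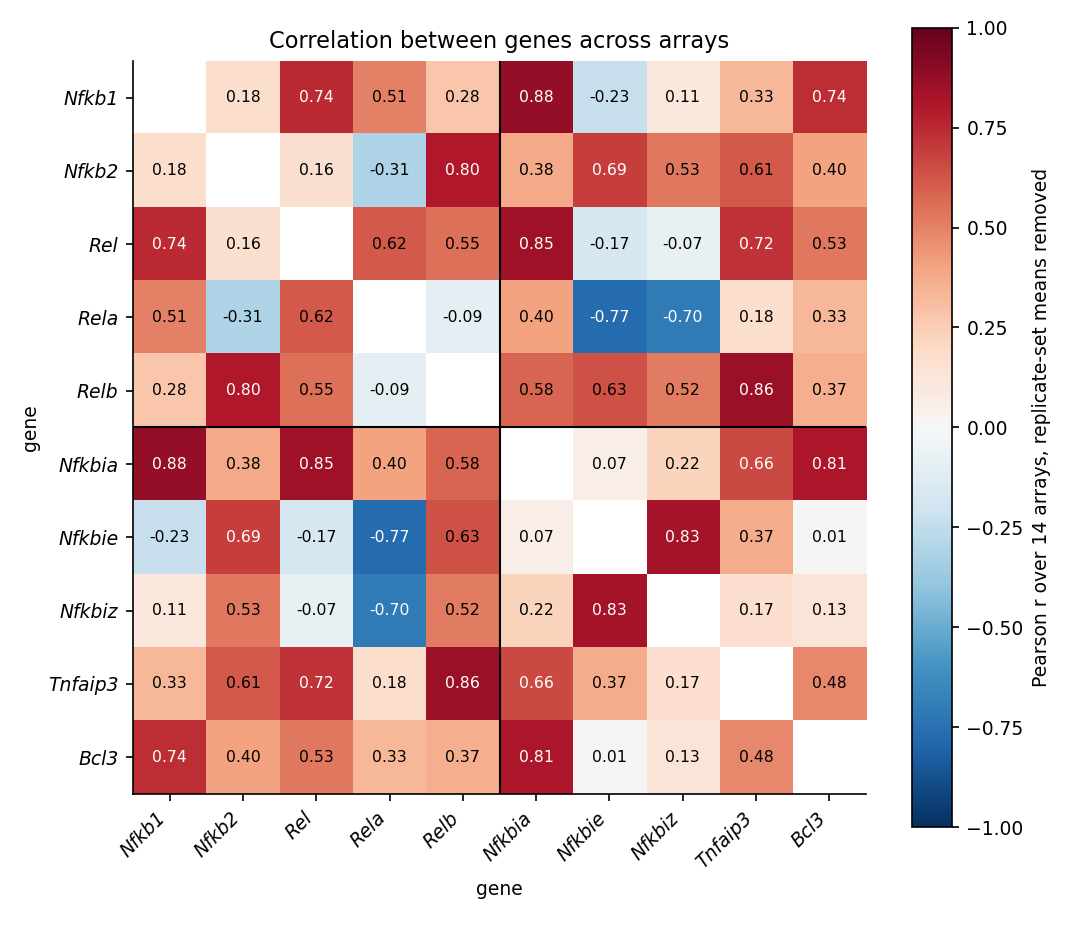
Pearson correlation between each pair of the 10 genes over 14 arrays after each replicate set's mean was removed (colour and printed value, axes list the genes, black lines part subunits from feedback inhibitors). Nfkb1, Rel and Nfkbia vary together (0.74 to 0.88), as do Nfkb2, Relb and Tnfaip3 (0.61 to 0.86). These are not separate groups, since Tnfaip3 stands at 0.72 with Rel and 0.66 with Nfkbia. Rela runs against Nfkbie (-0.77) and Nfkbiz (-0.70).

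The genes nearest to Nfkbia over the 14 arrays by the same measure were Pfkfb3 (r = 0.96), which encodes a glycolytic regulator, Rassf2 (0.95), Gm4907 (0.94), Cnn2 (0.94) and Gpat3 (0.94). Those nearest to Nfkb1 were Kalrn (0.97), Faap20 (0.96), Btk (0.96), the kinase downstream of the B cell receptor, Tmem43 (0.96) and F2rl2 (0.96). These were the highest correlations among the tested genes with a symbol (14729 in all), with the 10 members left out of the ranking.

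Of 80 tested genes for ligands, receptors, adaptors, IKK kinases, IkB degradation and other inhibitors, 1 was called in the whole comparison, Card9, beside the background of 3.54%, with a median difference of 0.01 beside 0.02 over all genes. No call was made among 8 ligands, 17 receptors, 10 genes of the IKK kinases and IkB degradation or 16 other inhibitors. From these same arrays the study listed Fbxw11, of the IkB degradation genes, and the adaptor gene Tab2 as down in Sting gt/gt. Here neither was called, and Fbxw11 differed by 0.06 (SE 0.17). Card9, the adaptor that links C-type lectin receptors to NF-kB, lay between -3.15 and -2.63 over the WT mice (median -2.91) and between -3.23 and -1.67 over the Sting gt/gt mice (median -2.31). The ranges overlapped, 5 of the 7 Sting gt/gt mice lay above the highest WT value, and the difference was 0.58 (SE 0.22, adjusted p = 0.999 by limma, exact permutation p = 0.0303). The study chose Card9 from these same arrays, so this is not independent evidence of its direction. With the mean of its probes Card9 differed by 0.41 and with a random slide block by 0.34, neither of them called. A fixed slide block, which rests on 5 arrays of the first scan day, gave 0.0072, not called. By set, Card9 differed by 0.21 (SE 0.28) in replicates 1 to 3 and 0.86 (SE 0.27) in replicates 4 to 7. The change between the sets was 0.65 (SE 0.42), not called.

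Of 38 tested NF-kB target genes other than the 10, 29 were higher in Sting gt/gt and 1 was called, with a median of 0.08. Over all genes, 13907 of 24908 were higher, 3.54% were called and the median was 0.02. The called gene was Ier3, an early response gene that restrains cell death. It lay between -0.997 and -0.45 over the WT mice (median -0.86) and between -0.77 and -0.28 over the Sting gt/gt mice (median -0.57), with overlap, and differed by 0.28 (SE 0.11, adjusted p = 0.999 by limma, exact permutation p = 0.0169). Ier3 lost its call with median centring (0.27), no scaling (0.22), a random slide block (0.20) and a fixed slide block (0.090). By set, Ier3 differed by 0.12 (SE 0.18) in replicates 1 to 3 and 0.40 (SE 0.12) in replicates 4 to 7. The change between the sets was 0.28 (SE 0.20), not called. The study listed the target gene Bcl2l1 as down in Sting gt/gt, and here it differed by -0.20 (SE 0.15), not called. Of 27 immediate early and stress genes, which respond to handling of tissue, 2 were called, both lower, with a median of 0.00. They were the heat shock genes Hspa1b (-0.58, SE 0.25) and Hspa8 (-0.22, SE 0.09), both at an adjusted p of 0.999 by limma. The study listed both as down from these same arrays, so this is not independent evidence of their direction. It also listed Dnajb1 as down, which differed by -0.28 (SE 0.15) here, not called. Hspa1b lost its call with the test the study's methods name and without WT replicate 2, 4 or 5 or Sting gt/gt replicate 1, 2 or 3 (-0.54 to -0.46). Hspa8 lost its call with the mean of its probes (-0.16), with a random (-0.19) or fixed (-0.17) slide block, and without WT replicate 1, 3 or 5 or Sting gt/gt replicate 7 (-0.21 to -0.19).

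In replicates 4 to 7, 13 of the 80 surrounding genes were called, 8 higher and 5 lower, against the background of 23.7%. Among the receptors these included Tnfrsf1b, the second TNF receptor (0.59, SE 0.11, adjusted p = 0.045 by limma), and Ltbr, the lymphotoxin-beta receptor (0.38, SE 0.13). The called genes with lower values included the B cell receptor chains Cd79a (-0.37, SE 0.15) and Cd79b (-0.47, SE 0.14). Map3k8, the kinase TPL2 that is held by p105, was 0.73 higher in replicates 1 to 3 (SE 0.22) and -0.37 in replicates 4 to 7 (SE 0.11), a change of -1.10 (SE 0.24, adjusted p = 0.0566 by limma). Of the target genes 6 of 38 were called, 5 of them higher, among them Sod2, the mitochondrial superoxide dismutase (0.39, SE 0.12), and the chemokine gene Cxcl1 (0.73, SE 0.21). The genes of this paragraph were chosen after their values were seen.

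**Figure D4:**
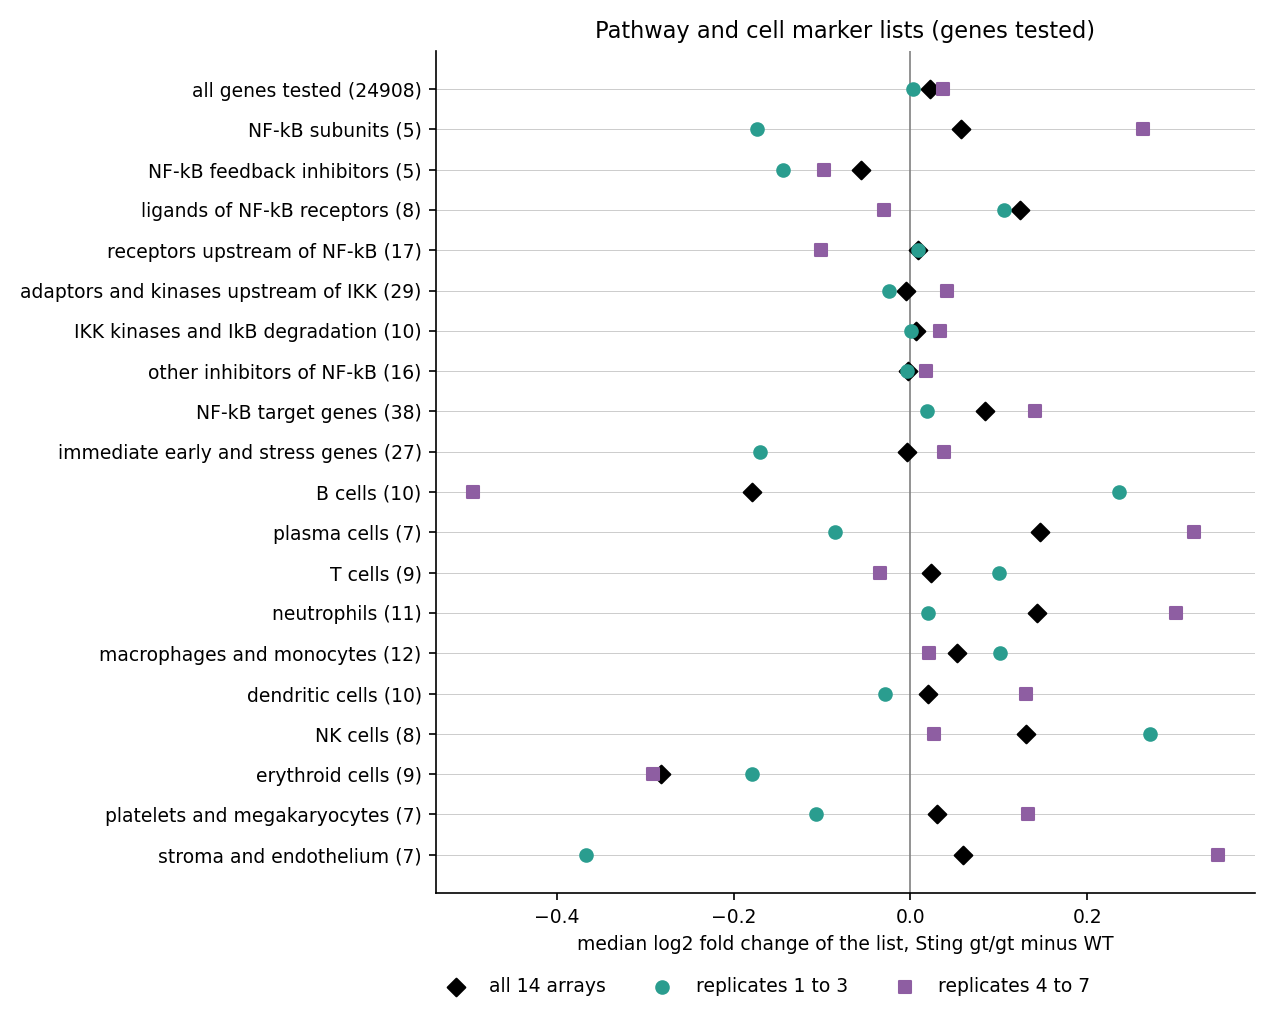
Median difference in log2 signal, Sting gt/gt minus WT (x axis), of each pathway and cell marker list (y axis, number of genes tested in brackets) over all 14 arrays, replicates 1 to 3 and replicates 4 to 7. The B cell list lies at 0.24 in replicates 1 to 3 and at -0.49 in replicates 4 to 7, and the stroma and endothelium list at -0.37 and 0.35.

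Counts of calls for markers of the cells in the spleen stand beside a background of 3.77% of all genes in replicates 1 to 3 and 23.7% in replicates 4 to 7. The B cell list, 10 genes with Ms4a1 among its defining markers, had 1 of 10 called in replicates 1 to 3, higher in Sting gt/gt, and 7 of 10 called in replicates 4 to 7, all lower. Its average log2 signal in replicates 4 to 7 was 2.25 to 2.79 in WT and 1.89 to 2.25 in Sting gt/gt, and in replicates 1 to 3 it was 1.74 to 2.10 in WT and 2.05 to 2.49 in Sting gt/gt. In each set Nfkbie and Nfkbiz differed in the same direction as this list, and Nfkb1, Rel, Rela, Nfkbia and Bcl3 in the opposite one. Nfkb2, Relb and Tnfaip3 were lower in Sting gt/gt in both sets. Any gene whose sign turned between the sets must run with or against a list that turned. Plasma cell markers were called higher in 4 of 7 in replicates 4 to 7 (list average 1.62 to 1.96 in WT and 2.02 to 2.43 in Sting gt/gt). Markers of stroma and endothelium were called lower in 2 of 7 in replicates 1 to 3 (1.21 to 1.69 in WT, 1.04 to 1.19 in Sting gt/gt) and higher in 3 of 7 in replicates 4 to 7 (1.28 to 1.44 in WT, 1.46 to 2.04 in Sting gt/gt). Erythroid markers were called lower in 5 of 9 in replicates 4 to 7 (6.07 to 6.49 in WT, 5.84 to 6.10 in Sting gt/gt).

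Calls in replicates 4 to 7 among the remaining lists were 3 of 11 for neutrophils, 2 of 10 for dendritic cells, 2 of 7 for platelets and megakaryocytes, 1 of 12 for macrophages and monocytes, 1 of 8 for NK cells and 0 of 9 for T cells. The defining markers were well above background on all 14 arrays, except Ly6g and Hbb-bs, for which no probe was matched. The part of these lists in the values of the 10 genes was not tested.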

How the data were processed

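Splenocyte RNA of 7 WT and 7 Sting gt/gt mice was measured on 14 one-colour Agilent arrays. The deposited intensity values were background-corrected by the authors in Agilent Feature Extraction (version 11.0.1.1 in the headers) and left without scaling from array to array. A table of log2 values was deposited too. Its normalization is not given in the sources used here, and its columns correlated with the scanner values at 0.997 to 0.999.

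The log2 processed signal was scaled to each array's 75th percentile, spots with outlier flags were left out, and repeated spots were averaged. The 31766 probes tested were those above background, by the scanner software's flag, on 7 or more arrays. Each gene was read from its brightest tested probe, giving 24908 genes or transcripts, 14729 of them with a symbol from RefSeq accessions. Genotypes were compared by limma 3.58.1 (lmFit, eBayes; R 4.3.3) without covariates, at an unadjusted p under 0.05, with Benjamini-Hochberg adjustment over all genes, and by two-sided exact permutation tests for each of the 10 genes. The fits were also run on simulated data with a scan-day shift and independent noise on each array. Those data held no correlation within slides, so they could not check p-values where arrays share a slide. Python 3.11.15, pandas 2.3.3 and numpy 2.4.6 were used for the rest. The number of arrays limits the precision.

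The members and lists were chosen with earlier results of these data known. Genes named by rule were the 10 members, list genes called in the whole comparison, and the 5 genes nearest to Nfkbia and to Nfkb1. Sting1, some defining markers and list genes that the study had listed were named too. Tnfrsf1b, Ltbr, Cd79a, Cd79b, Map3k8, Sod2 and Cxcl1 were picked from the genes called by replicate set after their values were seen, and other genes called there were left out. Scan day and slide came from the scanner files. Deviations of same-numbered arrays from their group means correlated at 0.16 to 0.53, and at -0.41 to 0.25 once scan-day means were removed, so the numbers pair arrays through the scan day. Arrays correlated with each other at 0.962 to 0.993. Alternatives covered scaling, background correction (normexp with offset 50, on the median signal), the authors' table, filters, probes, test, replicate block, scan day, slide, array weights and each array left out.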

Additional observations from a re-analysis of the deposited data

Results flagged for a closer look

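In Sting gt/gt, replicate 1 lay apart from the other 6 mice for Nfkb1 (-0.67) and for Nfkbia (4.24), as the lowest in each. In WT, replicate 2 was the highest for Nfkb1 (0.41), and in Sting gt/gt replicate 3 was the highest for Nfkb2 (2.87). These were 4 of 20 groups of 7 looked at, where chance marks about 1 in 20. The genotype difference of Rela changed by 0.48 from replicates 1 to 3 to replicates 4 to 7, and that of Nfkbie by -0.55, both past an unadjusted threshold by limma and neither past the adjusted one (adjusted p = 0.101 and 0.229).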

How the results depend on the processing

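The number of arrays and the shared slide of replicates 4 to 7 limit every value, and the cause of the changes below was not tested. Over all genes, the count called (882) became 1928 in the authors' table, 1408 with the replicate block, 1803 with scan day as a term, 439 with a random slide block and 4419 with array weights, and lay between 494 and 1963 as each array was left out. Sting gt/gt replicate 6 gave the lowest when left out, replicate 5 gave 530 and replicate 1 the highest. The replicate block changed no call among the 10 genes in the whole comparison (0 called). Their count called became 1 with array weights (Nfkb1) and lay between 0 and 1 with each array left out. In replicates 4 to 7 it fell from 3 to 1 with no scaling and lay between 1 (without WT replicate 7 or Sting gt/gt replicate 6) and 3. The count of genes whose difference changed between the sets was 4 with median centring, 1 with no scaling, quantile normalization or the mean of the probes, and between 1 (without WT replicate 5 or 7 or Sting gt/gt replicate 6) and 4 (without WT replicate 1) with an array left out.

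Signs turned as follows. In the whole comparison, no scaling gave -0.0022 for Rela, -0.018 for Nfkbia and -0.023 for Nfkbiz, the mean of the probes -0.054 for Nfkbiz, and array weights -0.012 for Nfkbiz and 0.062 for Bcl3. A random slide block gave -0.071 for Nfkb1, -0.057 for Rel, -0.067 for Rela and -0.12 for Nfkbia. A fixed slide block, which rests on the 5 arrays of the first scan day whose slides held both genotypes, gave -0.34, -0.29, -0.18 and -0.34 for these 4, and 0.10 for Nfkbie. In replicates 1 to 3 the mean of the probes gave 0.017 for Rela and 0.013 for Relb. For the change between sets, median centring gave 0.029 for Nfkb2 and 0.055 for Relb, quantile normalization -0.054 and the authors' table -0.030 for Tnfaip3, and normexp 0.0075 for Relb. With each array left out, the whole difference lay between -0.00077 and 0.15 for Nfkbia, -0.12 and 0.16 for Nfkbiz, and -0.10 and 0.0074 for Bcl3. In replicates 1 to 3 it lay between -0.31 and 0.087 for Nfkb1, -0.18 and 0.018 for Nfkb2, -0.47 and 0.11 for Rel, -0.22 and 0.10 for Relb, -0.33 and 0.015 for Nfkbia, and -0.25 and 0.062 for Tnfaip3. The change between sets lay between -0.14 and 0.057 for Nfkb2, -0.19 and 0.13 for Relb, and -0.16 and 0.15 for Tnfaip3. Correlations without 2 arrays were chosen after seeing the data.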
